A study of Mus musculus with 6 samples.

Results

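The data describe 42 genes of DNA replication and mitosis in epididymal white adipose tissue (eWAT), a visceral depot of the male mouse. The genes were given as a list of names grouped by function, and all 42 were among the 24539 genes of the deposited count table. They were divided into 18 S phase genes, which act in or prepare DNA replication, and 24 mitotic genes, which act from the end of replication to the division of the cell. RNA was sequenced from 3 knockout mice (Jmjd8-KO) and from 3 controls of the wild type (WT). All 6 were C57BL/6 mice kept on a high-fat diet (HFD), with no other treatment. The sources used here give neither the deleted stretch of Jmjd8, the tissues in which it is deleted, the time on the diet nor the age of the mice.

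Cells divide by copying their DNA once, in S phase, and then parting the copies in mitosis. The E2F factors, held back by proteins of the retinoblastoma family until growth signals arrive, switch on the replication genes, and the MuvB complex with MYBL2 and FOXM1 later switches on the mitotic genes. These transcripts therefore mark cells in cycle. Mature adipocytes rarely divide, and in obese fat the dividing cells include macrophages, endothelial cells and adipocyte progenitors. In RNA from whole tissue, fewer cells of a type and less RNA per cell cannot be told apart.

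The promoters of these genes carry short motifs known as marks of their class. The motifs searched were the CCAAT box (CCAAT), the cell cycle genes homology region or CHR (TTTGAA) and an E2F site (TTTCCCGC, TTTCGCGC, TTTGCCGC or TTTGGCGC). Each was sought on both strands in the 300 bases from 250 before to 50 after the RefSeq start of a gene (GRCm38.p6), at the first start listed. Promoters were found for 34 of the 42 members. A CHR stood in 13 of 19 mitotic promoters (68.4%) and 2 of 15 S phase promoters (13.3%), against 18.1% of all 27025 promoters. An E2F site stood in 6 of 15 S phase promoters (40%) and 1 of 19 mitotic ones (5.26%), against 2.32% of all. A CCAAT box stood in 84.2% of mitotic and 66.7% of S phase promoters, against 37.9% of all. A match is a description of letters and not a bound site. The sequences of the 3 S phase and the 3 mitotic members with the smallest p among those with a promoter show both classes. They run 5′ to 3′ on the strand of the gene, with the 3 kinds of motif in capitals. In Mcm5 the capitals join 2 overlapping E2F matches on opposite strands, and in Uhrf1 they join 2 overlapping CCAAT boxes on opposite strands.
Mcm5 (chr8:75109259-75109558, plus strand): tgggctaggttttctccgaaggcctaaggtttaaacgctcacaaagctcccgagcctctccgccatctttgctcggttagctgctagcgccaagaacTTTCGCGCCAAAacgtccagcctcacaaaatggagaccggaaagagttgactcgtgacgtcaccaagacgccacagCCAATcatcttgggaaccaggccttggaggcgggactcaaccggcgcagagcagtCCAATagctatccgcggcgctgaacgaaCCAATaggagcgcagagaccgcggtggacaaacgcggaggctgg
Rrm2 (chr12:24708004-24708303, plus strand): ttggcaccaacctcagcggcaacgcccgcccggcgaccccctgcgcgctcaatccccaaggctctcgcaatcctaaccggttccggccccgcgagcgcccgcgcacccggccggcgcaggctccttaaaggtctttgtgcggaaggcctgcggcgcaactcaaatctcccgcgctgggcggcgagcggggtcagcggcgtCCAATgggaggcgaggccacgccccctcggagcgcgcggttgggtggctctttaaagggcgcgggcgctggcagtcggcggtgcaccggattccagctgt
Uhrf1 (chr17:56303087-56303386, plus strand): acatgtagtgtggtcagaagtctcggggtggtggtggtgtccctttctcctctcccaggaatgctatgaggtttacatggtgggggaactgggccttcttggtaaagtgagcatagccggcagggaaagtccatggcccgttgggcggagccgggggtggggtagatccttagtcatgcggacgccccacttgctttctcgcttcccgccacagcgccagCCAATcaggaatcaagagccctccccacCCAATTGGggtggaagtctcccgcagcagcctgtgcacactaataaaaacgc
Top2a (chr11:99024140-99024439, minus strand): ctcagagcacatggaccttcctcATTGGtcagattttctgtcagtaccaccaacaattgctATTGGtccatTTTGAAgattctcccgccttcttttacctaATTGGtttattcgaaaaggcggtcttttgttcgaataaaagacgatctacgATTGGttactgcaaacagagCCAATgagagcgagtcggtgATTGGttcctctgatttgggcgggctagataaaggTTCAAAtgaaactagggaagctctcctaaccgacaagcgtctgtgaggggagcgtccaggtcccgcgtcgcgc
Ccnb2 (chr9:70421505-70421804, minus strand): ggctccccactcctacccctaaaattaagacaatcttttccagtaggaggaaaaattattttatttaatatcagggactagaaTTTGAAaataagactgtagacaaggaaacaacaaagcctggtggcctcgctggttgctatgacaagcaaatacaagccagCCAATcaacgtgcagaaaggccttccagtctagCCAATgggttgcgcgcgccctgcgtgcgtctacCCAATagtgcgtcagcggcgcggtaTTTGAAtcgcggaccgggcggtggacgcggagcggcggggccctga
Cdk1 (chr10:69352863-69353162, minus strand): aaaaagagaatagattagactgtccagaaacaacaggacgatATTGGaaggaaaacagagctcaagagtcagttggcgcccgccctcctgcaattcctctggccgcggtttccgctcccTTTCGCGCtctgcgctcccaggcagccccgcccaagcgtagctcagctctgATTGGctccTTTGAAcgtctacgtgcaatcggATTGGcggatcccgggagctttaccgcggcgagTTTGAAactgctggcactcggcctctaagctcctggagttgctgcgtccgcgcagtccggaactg
Both trios held CCAAT boxes. The first trio held no CHR, and the other trio held 2 CHR matches each. Cdk1, a mitotic kinase gene, also held an E2F site. Rrm2 and Uhrf1 held none of the 4 E2F spellings, which says only that these letters are not in this window.

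Total counts lay between 17598696 and 20598473 per library, of which the members took 7750 to 11900 counts (0.0423% to 0.0614%). Jmjd8 itself had 748, 1147 and 728 counts in the knockouts and 2277, 2284 and 2209 in the controls. Its log2 fold change was -1.28 (SE 0.144, edgeR adjusted p = 0.0193, or 0.00101 to 0.137 with 1 mouse left out), and 39.3% of its exonic bases overlap Stub1 on the other strand. None of the 10 adipocyte markers was at 0 in any mouse, and they summed to at least 22450 CPM (counts scaled to library size with TMM factors). A library in each group stood apart. In WT replicate 1 the sum over 13 nervous system markers was 1382 CPM, against 65.2 to 91.5 CPM in the other 5. Jmjd8-KO replicate 2 deviated from its group in step with GC content: its median log2 difference from the other knockouts ran from -0.20 in the fifth of genes with the lowest GC content to 0.24 in the fifth with the highest. Counts are therefore also given without these libraries.

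Replication and mitosis genes were lower in Jmjd8-KO fat in sum, and few passed the test on their own. The members summed to 435.8, 438.0 and 450.3 CPM in the knockouts and to 577.3, 543.9 and 599.6 CPM in the controls, or 441.4 ± 7.84 against 573.6 ± 28.0 CPM (SD, n = 3 each, as throughout). The groups did not overlap in this sum. By edgeR's quasi-likelihood test with adjustment over all 14322 genes tested, 3 of the 42 members fell: Rrm2, Uhrf1 and Mcm5, all of S phase. This is 7.14% of the members, against 1.33% of all genes tested that were called lower. None rose, against 0.789% of all genes called higher, and none was higher at an unadjusted p under 0.05 or by DESeq2. All 42 members passed the filter on low counts. The log2 fold change (Jmjd8-KO minus WT) was below 0 for 39 of 42 members, with a median of -0.44, while 50.9% of all genes tested were below 0, with a median of -0.0056. At an unadjusted p under 0.05, 23 of 42 members were lower, against 10.1% of all genes tested.

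In 29 members (69%) all 3 knockout values lay below all 3 control values, against 15.5% of all genes tested. In no member did they lie above, against 14% of all genes. The other 13 members overlapped between the groups. Without Jmjd8-KO replicate 2 the count was 30 members (all genes: 23.7%), without WT replicate 1 it was 29 (18.6%) and without both it was 31 (28.1%). The highest value was in WT replicate 3 for 21 members, in WT replicate 1 for 14 and in WT replicate 2 for 3. The lowest was in a knockout for all members but 1 (Mcm7), and in Jmjd8-KO replicate 2 for 19.

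**Figure D1:**
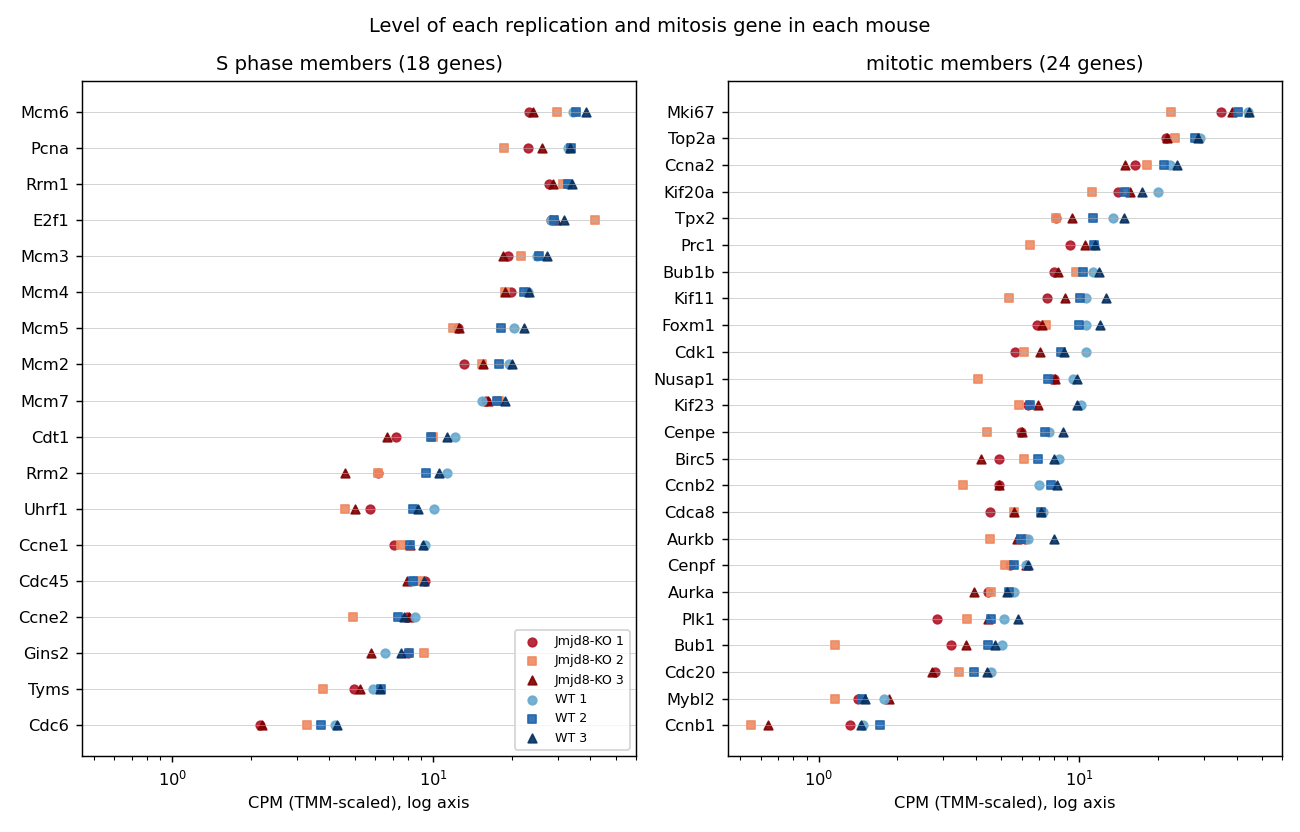
Level of each S phase gene (left) and mitotic gene (right) in each mouse, in CPM scaled by TMM factors on a log axis; red and orange points are Jmjd8-KO mice and blue points WT mice, with no error bars since every point is 1 mouse. Most rows separate by colour, such as Mcm5 with 11.9 to 12.6 CPM against 18.1 to 22.4 CPM, while E2f1, Cdc45 and Gins2 do not.

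How many members passed depended on single mice. Without Jmjd8-KO replicate 2, 14 of 42 members were called lower (33.3%, all genes: 4.82%), 8 of S phase and 6 mitotic. Without WT replicate 1, 0 of 42 passed by edgeR (all genes: 0.104% called lower), with 20 members at an unadjusted p under 0.05 (13.2% of all genes, in either direction). Without both mice that stood apart, 23 passed (54.8%, all genes: 9.72%). Without any other single mouse 0 members passed by edgeR, in fits with 0 to 4 genes called in all and 14 to 24 members at an unadjusted p under 0.05 (14.6% to 17.1% of all genes, in either direction). DESeq2 on all 6 mice called 10 members lower (23.8%, all genes: 4%), namely Rrm2, Uhrf1, Mcm5, Mcm6, Pcna, Foxm1, Ccnb2, Ccna2, Top2a and Tpx2. Of the 304 genes of the whole table that edgeR called, 62.8% were lower; that share was 77.4% of 372 with counts scaled by library size alone and 51.6% of 1039 with DESeq2.

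**Figure D2:**
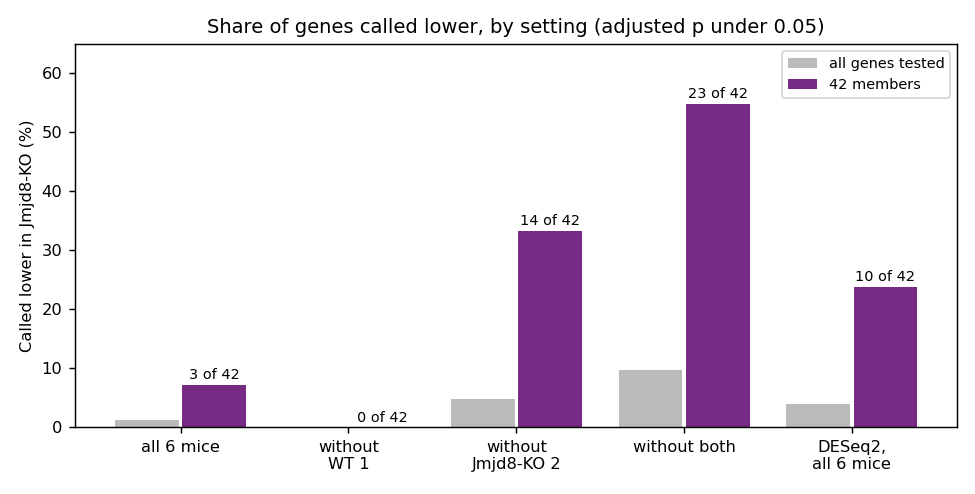
Percentage of genes called lower in Jmjd8-KO at an adjusted p under 0.05, for all genes tested (grey) and for the 42 members (purple, with their count), in fits by edgeR with all mice or without the libraries named, and by DESeq2. The members' share is above that of all genes in every fit shown but the one without WT replicate 1, where 0 of 42 were called.

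The replicative helicase, the ring of Mcm2 to Mcm7 with Cdc45 and the GINS complex, unwinds DNA at the fork. Of its 8 members here 1 fell (1.33% of all genes were called lower). Mcm5, a subunit of the ring, was at 12.5, 11.9 and 12.6 CPM in the knockouts and at 20.3, 18.1 and 22.4 CPM in the controls. The groups did not overlap, and the knockouts were closer to each other than the controls were. The means were 12.3 ± 0.350 CPM against 20.3 ± 2.11 CPM, a log2 fold change of -0.72 (SE 0.109, edgeR adjusted p = 0.0317), so the level was 60.7% of WT. Without Jmjd8-KO replicate 2 its edgeR adjusted p was 0.0167. Without any other mouse the call was lost, with 0.101 without WT replicate 1 and a highest value of 0.168 without WT replicate 3. The gene is at chr8:75109569-75128439 (GRCm38, plus strand), and none of its exons overlaps another gene.

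The other ring subunits did not pass, and they were not alike. Mcm6 was at 23.3, 29.7 and 24.1 CPM in the knockouts and at 34.3, 35.3 and 38.6 CPM in the controls (log2 fold change -0.49, SE 0.117, edgeR adjusted p = 0.0891). The log2 fold changes of Mcm2, Mcm3 and Mcm4 were -0.39, -0.39 and -0.26, and none of these 4 overlapped between the groups. Mcm7 was at 15.9, 17.9 and 16.1 CPM against 15.3, 17.5 and 18.9 CPM, which overlapped (-0.053, SE 0.114). Cdc45, which joins the ring to make the active helicase, was at 8.76 ± 0.715 CPM against 8.66 ± 0.486 CPM. Gins2, a GINS subunit, was at 7.66 ± 1.75 CPM against 7.36 ± 0.783 CPM. Its range in the knockouts, from 5.75 to 9.20 CPM, held all 3 controls. The log2 fold changes of Cdc45 and Gins2 were 0.018 and 0.058 and turned to -0.059 and -0.018 with counts scaled by library size alone. Under that scaling the median of all genes tested was -0.082.

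Some of these values rest on shared exons. In GENCODE M21 the exons of 10 members share bases with another gene of the table. The sources do not say whether the counting used strand, so reads in the shared stretch cannot be assigned. For Gins2 67.3% of exonic bases overlap Gse1 on the other strand, a gene at 36.2 CPM in WT with a log2 fold change of -0.038. Cdc45 shares 5.96% with Ufd1 (76.3 CPM, 0.012) and Mcm7 shares 7.25% with Ap4m1 (15.4 CPM, 0.36). Ccne2 shares 17.4% with Ints8 (34.4 CPM, 0.071) and Kif20a shares 29.3% with Cdc23 (44.8 CPM, -0.026). Some partners differed more: Cdc20 shares 2.84% with Elovl1 (91.4 CPM, -0.45) and Prc1 shares 11.1% with Rccd1 (5.05 CPM, 0.47). The effect of the overlap on these members was not tested. Rrm2, Uhrf1 and Mcm5 have no such overlap. Pcna, Tyms, Ccnb1 and Ccnb2 have pseudogenes of their name, among which the counting could divide reads.

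Cdc6 and Cdt1, which load the ring onto origins before S phase, did not pass. Cdc6 was at 2.16, 3.27 and 2.21 CPM in the knockouts and at 4.20, 3.70 and 4.28 CPM in the controls (log2 fold change -0.67, SE 0.221, edgeR adjusted p = 0.172). Cdt1 was at 7.17, 9.96 and 6.62 CPM against 12.1, 9.84 and 11.3 CPM (-0.48, SE 0.183, adjusted p = 0.220 by edgeR). For both, Jmjd8-KO replicate 2 was the highest of its group, and Cdt1 overlapped through it alone. Without that mouse both were called lower, with log2 fold changes of -0.89 (edgeR adjusted p = 0.0300) and -0.68 (adjusted p = 0.0271).

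Genes for the clamp and the supply of nucleotides were lower in every knockout than in any control (15.5% of all genes). Of these 4, 1 passed (1.33% of all genes were called lower). Rrm2, the regulated subunit of ribonucleotide reductase, which makes deoxynucleotides, was at 6.12, 6.14 and 4.59 CPM in the knockouts and at 11.3, 9.38 and 10.5 CPM in the controls. Its means were 5.61 ± 0.886 CPM against 10.4 ± 0.943 CPM (log2 fold change -0.88, SE 0.162, edgeR adjusted p = 0.0481), or 54.2% of WT. This is the largest difference among the S phase members. The call sits close to the threshold: it was lost under a stricter filter on low counts (edgeR adjusted p = 0.0575) and without any mouse but Jmjd8-KO replicate 2, with 0.131 without WT replicate 1 and a highest value of 0.210 without WT replicate 3. Rrm1, the large subunit of the same enzyme, was at 27.9, 31.5 and 28.7 CPM against 32.98, 32.8 and 34.2 CPM (-0.18, SE 0.0834, edgeR adjusted p = 0.293). The difference between the subunits was not tested. Pcna, the sliding clamp that holds the polymerase on DNA, was at 23.0, 18.7 and 26.1 CPM against 32.9, 33.7 and 33.5 CPM (-0.56, SE 0.129, edgeR adjusted p = 0.0800). Its control mice were within 1 CPM of each other. Tyms, thymidylate synthase, was at 4.65 ± 0.775 CPM against 6.14 ± 0.227 CPM (-0.40).

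Of the 4 genes grouped under S phase entry only Uhrf1 passed (1.33% of all genes were called lower). E2f1, Ccne1 and Ccne2 did not pass. Uhrf1, which brings the maintenance methylase to newly copied DNA, was at 5.75, 4.58 and 4.997 CPM in the knockouts and at 10.1, 8.37 and 8.77 CPM in the controls. The means were 5.11 ± 0.593 CPM against 9.07 ± 0.892 CPM (log2 fold change -0.83, SE 0.152, edgeR adjusted p = 0.0481), or 56.3% of WT, with no overlap. Its edgeR adjusted p was 0.0575 under the stricter filter and 0.0271 when Jmjd8-KO replicate 2 was left out. It was 0.128 when WT replicate 1 was left out and at most 0.199, when WT replicate 3 was, so that leaving out any mouse but Jmjd8-KO replicate 2 lost the call. Rrm2 is at chr12:24708241-24714146 and Uhrf1 at chr17:56303321-56323486, both on the plus strand. E2f1, an activator of this programme, was at 28.1, 41.6 and 29.5 CPM in the knockouts and at 28.3, 29.1 and 31.8 CPM in the controls. The value of Jmjd8-KO replicate 2 stood above all the others, and the log2 fold change was 0.15 (SE 0.159, edgeR adjusted p = 0.619) with it and -0.045 without it. The E-type cyclins, which with Cdk2 start S phase, had log2 fold changes of -0.23 for Ccne1 and -0.17 for Ccne2, and both overlapped between the groups. Ccne2 was at 4.93 CPM in Jmjd8-KO replicate 2 and at 7.30 to 8.54 CPM in the other 5 mice.

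**Figure D3:**
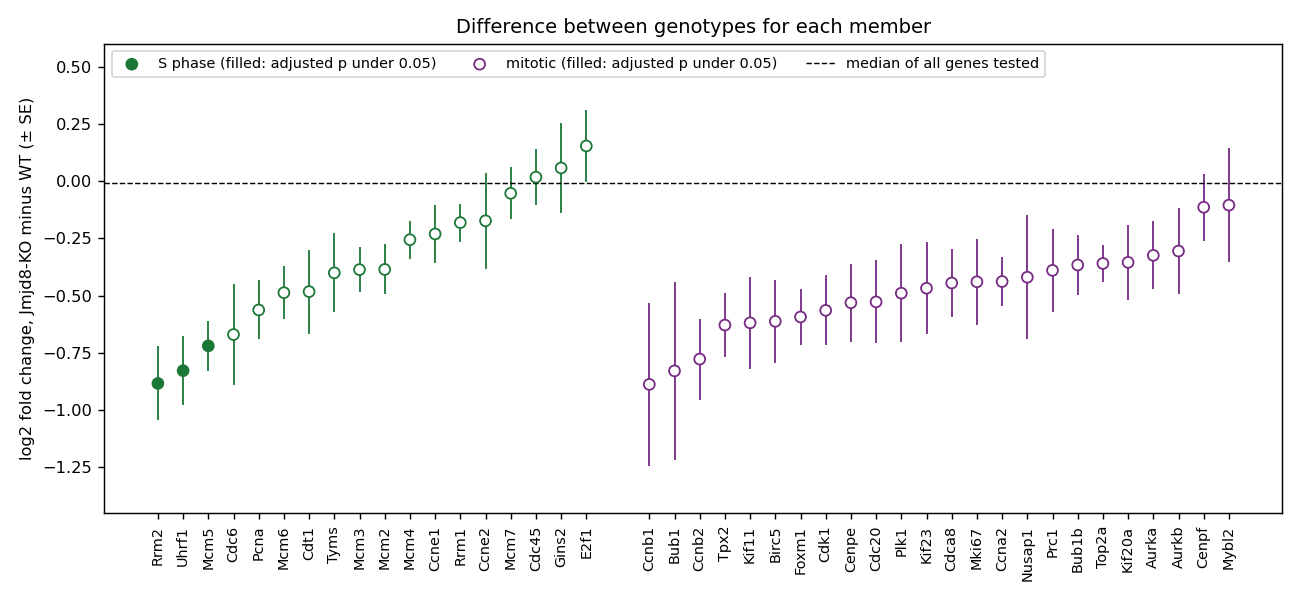
Log2 fold change of each member, Jmjd8-KO minus WT, with its standard error from the edgeR fit over all 6 mice; filled points passed at an adjusted p under 0.05, and the dashed line is the median of all genes tested. Rrm2, Uhrf1 and Mcm5 are filled, and all 24 mitotic members lie below 0 without passing.

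No mitotic gene passed by edgeR, though all 24 had a log2 fold change below 0. Their median was -0.46, and 13 of 24 had an unadjusted p under 0.05 (10.1% of all genes, lower). DESeq2 called 5 of 24 (4% of all genes, lower). In 18 of 24 every knockout lay below every control (15.5% of all genes). Foxm1, the transcription factor of the late wave, was at 6.85, 7.44 and 7.21 CPM in the knockouts and at 10.6, 9.94 and 11.9 CPM in the controls. It had the smallest p of the mitotic members, with a log2 fold change of -0.59 (SE 0.124, edgeR adjusted p = 0.0656), and it was called lower without Jmjd8-KO replicate 2 (-0.62, adjusted p = 0.0295). Mybl2, the B-MYB factor that acts before it, was among the lowest members at 1.48 ± 0.355 CPM against 1.59 ± 0.167 CPM and overlapped between the groups (-0.10, SE 0.249). Its log2 fold change was 0.047 without Jmjd8-KO replicate 2.

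Cdk1, the kinase that drives entry into mitosis, and its cyclins were lower in all 3 knockouts than in any control (15.5% of all genes). None of the 4 passed. Ccna2, the A-type cyclin that serves S phase as well as mitosis, was at 16.3, 18.2 and 14.9 CPM against 22.2, 21.1 and 23.6 CPM (log2 fold change -0.44, SE 0.107, edgeR adjusted p = 0.0942). Ccnb2, a B-type cyclin, was at 4.90, 3.57 and 4.94 CPM against 7.01, 7.76 and 8.21 CPM (-0.78, SE 0.177, edgeR adjusted p = 0.0790). Both were called lower without Jmjd8-KO replicate 2 (edgeR adjusted p of 0.0206 for Ccna2 and 0.0347 for Ccnb2). Ccnb1, the other B-type cyclin, had the most negative log2 fold change of all members, -0.89, with an SE of 0.357. It was also the least abundant in CPM, at 1.32, 0.553 and 0.639 CPM in the knockouts and at 1.48, 1.72 and 1.46 CPM in the controls, so that Jmjd8-KO replicate 1 lay close to the controls; without that mouse its log2 fold change was -1.38. Cdk1 itself was at 6.27 ± 0.705 CPM against 9.27 ± 1.13 CPM (-0.56, SE 0.153, edgeR adjusted p = 0.117).

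The mitotic kinases and the chromosomal passenger complex, which corrects faulty attachment of chromosomes, had log2 fold changes from -0.61 to -0.30. Birc5, or survivin, a passenger subunit, was at 4.90, 6.14 and 4.18 CPM in the knockouts and at 8.34, 6.95 and 8.01 CPM in the controls (-0.61, SE 0.182, edgeR adjusted p = 0.140; -0.77 and adjusted p = 0.0304 without Jmjd8-KO replicate 2). Cdca8, or borealin, another subunit, was at 5.27 ± 0.635 CPM against 7.17 ± 0.0807 CPM. Aurkb, the kinase of that complex, was at 6.17, 4.53 and 5.75 CPM against 6.37, 5.98 and 7.96 CPM and overlapped (-0.30, SE 0.187; -0.18 without Jmjd8-KO replicate 2 and -0.17 without WT replicate 3). The polo-like kinase Plk1 (-0.49) and Aurka (-0.32), which acts at spindle poles, did not overlap between the groups and did not pass.

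Among the spindle checkpoint genes Jmjd8-KO replicate 2 was low in one and high in another. Bub1, a checkpoint kinase, was at 3.22, 1.16 and 3.66 CPM in the knockouts and at 5.04, 4.46 and 4.74 CPM in the controls. Its log2 fold change was -0.83 (SE 0.389) with Jmjd8-KO replicate 2 and -0.46 without it. Bub1b, its paralogue BubR1, was at 7.96, 9.71 and 8.31 CPM against 11.3, 10.3 and 11.9 CPM, with Jmjd8-KO replicate 2 the highest of its group (-0.37, SE 0.129, edgeR adjusted p = 0.193; -0.46 and adjusted p = 0.0482 without that mouse). Cdc20, the activator of the ligase that ends mitosis, was at 3.00 ± 0.410 CPM against 4.33 ± 0.332 CPM (-0.53, SE 0.181).

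Among genes of the spindle, kinetochore and cytokinesis 4 of 8 had every knockout below every control (15.5% of all genes). Tpx2, which activates Aurka and nucleates microtubules, was at 8.12, 8.15 and 9.36 CPM in the knockouts and at 13.5, 11.3 and 14.9 CPM in the controls (log2 fold change -0.63, SE 0.141, edgeR adjusted p = 0.0763). Kif11, the motor that pushes spindle poles apart, was at 7.21 ± 1.71 CPM against 11.1 ± 1.35 CPM (-0.62). The kinetochore motor Cenpe (-0.53) and Prc1, which bundles microtubules of the midzone (-0.39), also had every knockout below every control. Without Jmjd8-KO replicate 2 the log2 fold change of Prc1 was -0.21. The other 4 overlapped. The kinesins of cytokinesis Kif23 and Kif20a had -0.47 and -0.35, the latter -0.23 without Jmjd8-KO replicate 2. Nusap1, which stabilises spindle microtubules, had -0.42, with 4.07 CPM in Jmjd8-KO replicate 2 beside 7.96 and 8.08 CPM in replicates 1 and 3, and it had -0.16 without that mouse. Cenpf, a kinetochore protein, had -0.11.

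Mki67 and Top2a were the most abundant mitotic members in CPM. Top2a, the topoisomerase that untangles sister chromosomes, was at 21.6, 23.2 and 21.6 CPM in the knockouts and at 29.0, 27.6 and 28.5 CPM in the controls (log2 fold change -0.36, SE 0.0817, edgeR adjusted p = 0.0790; adjusted p = 0.0203 without Jmjd8-KO replicate 2). Mki67, the Ki-67 protein that coats mitotic chromosomes and is the usual stain for dividing cells, was at 34.9, 22.5 and 38.4 CPM against 44.2, 40.7 and 44.8 CPM. Its groups did not overlap, but Jmjd8-KO replicate 2 was far below the rest. The log2 fold change was -0.44 (SE 0.187, edgeR adjusted p = 0.264) with it and -0.24 (adjusted p = 0.0975) without it.

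Both classes had negative medians. The median log2 fold change was -0.39 over 18 S phase members and -0.46 over 24 mitotic members, a difference of -0.07 given as a description, with no test. With 1 mouse left out this difference ran from -0.18 (without Jmjd8-KO replicate 3, medians of -0.35 and -0.53) to -0.048 (without WT replicate 1). The S phase members summed to 241.5, 265.5 and 243.5 CPM in the knockouts and to 307.9, 301.7 and 324.6 CPM in the controls. The mitotic members summed to 194.3, 172.5 and 206.8 CPM against 269.4, 242.2 and 275.0 CPM. Neither sum overlapped between the groups. The mitotic sum was 0.804, 0.649 and 0.849 times the S phase sum in the knockouts and 0.875, 0.803 and 0.847 times in the controls. This ratio overlapped between the groups, with Jmjd8-KO replicate 2 below all other mice. The mean log2 CPM of the mitotic members minus that of the S phase members was -0.88 ± 0.192 per knockout and -0.75 ± 0.048 per control, and it overlapped too. The range within a class was wide: from -0.88 to 0.15 among S phase members and from -0.89 to -0.10 among mitotic ones.

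**Figure D4:**
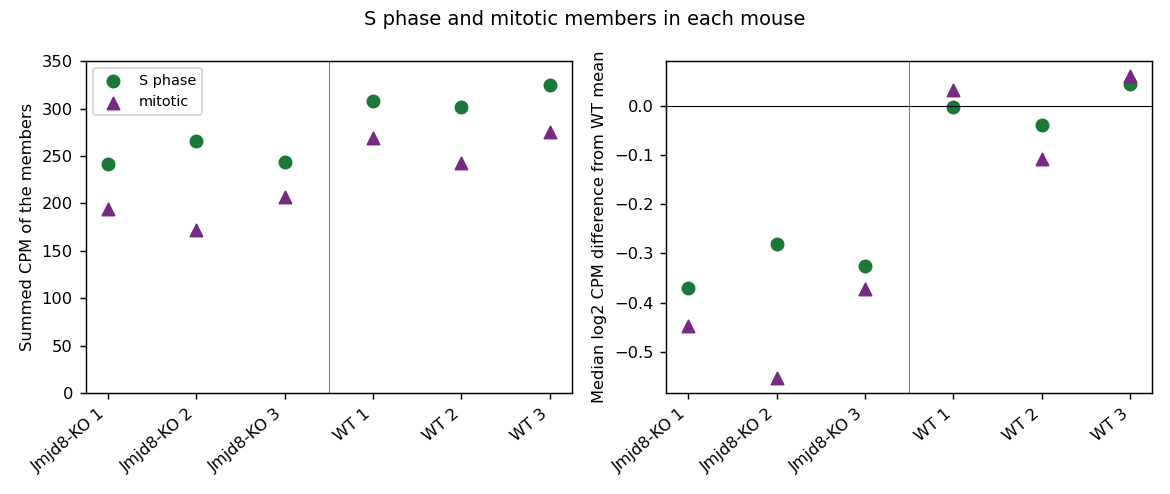
Summed CPM of the S phase members (green circles) and mitotic members (purple triangles) in each mouse (left, from 0), and the median over the members of log2 CPM minus its WT mean (right); each point is 1 mouse. Both classes are lower in all 3 Jmjd8-KO mice than in any WT mouse, and the gap between the classes is widest in Jmjd8-KO replicate 2 (265.5 against 172.5 CPM).

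Jmjd8-KO replicate 2 stood apart unequally over the members. Relative to the mean of the other knockouts it was lower in 15 of 24 mitotic members and higher in 11 of 18 S phase members on the log2 CPM scale. The differences ran from -1.49 for Bub1 to 0.56 for Cdc6. Its deviation moved with GC content, which was at a median of 47.6% in mitotic and 50.5% in S phase transcripts. Across the 42 members Spearman's rho between GC content and this deviation was 0.51, and across 14017 tested genes it was 0.34. These are descriptions over genes that share the same libraries. With the GC trend taken out of every library, an alternative chosen after seeing the data, the medians were -0.39 for S phase and -0.44 for mitotic members. In that fit 4 members fell, Foxm1 (edgeR adjusted p = 0.0461) with the 3 named. It called 249 of 14322 genes lower in the whole table, against 191 without the correction.

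**Figure D5:**
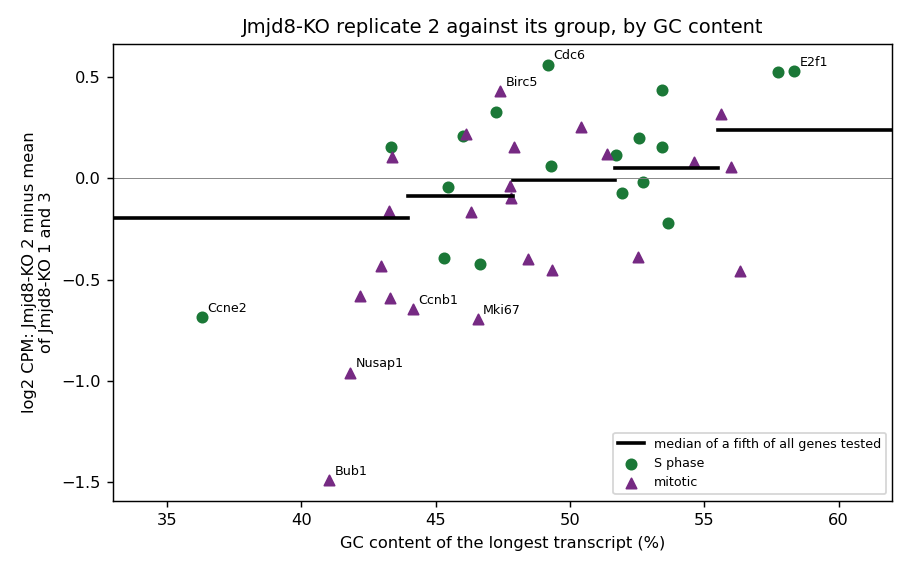
Log2 CPM of Jmjd8-KO replicate 2 minus the mean of Jmjd8-KO replicates 1 and 3 (y axis) against GC content of the longest transcript (x axis, in percent) for S phase (green circles) and mitotic (purple triangles) members; black lines are medians of all genes tested in GC classes of equal size, within the range shown. Members with low GC content such as Bub1 (-1.49) and Nusap1 (-0.96) lie below 0, and E2f1 (0.53) lies above.

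Levels can be compared between genes per length with the deposited RPKM values, which carry no TMM scaling. Pcna was the most abundant member, at 16.2 ± 2.78 RPKM in the knockouts and 25.0 ± 0.0997 RPKM in the controls. E2f1, Mcm3, Rrm1, Mcm6 and Ccna2 followed in WT with 9.08, 8.50, 7.88, 7.69 and 7.51 RPKM. The least abundant were Mybl2, Cenpf, Ccnb1 and Cdc6, at 0.406, 0.516, 0.635 and 0.817 RPKM in WT. Mki67, the highest member in CPM, was at 4.06 RPKM.

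Other genes of the cell cycle were lower in part. Of 42 other replication genes 1 fell, Tk1, thymidine kinase, which was at 3.46 ± 0.428 CPM against 6.82 ± 0.612 CPM (log2 fold change -0.98, SE 0.167, edgeR adjusted p = 0.0413). This is 2.38% of the list, against 1.33% of all genes called lower, so the share is near the background. The median of that list was -0.25, and 31 of 42 were below 0. Of 50 other mitotic genes 2 fell (4%). They were Cdca3, which triggers the breakdown of Wee1 (4.57 ± 0.805 CPM against 9.31 ± 0.968 CPM, -1.03, SE 0.178, edgeR adjusted p = 0.0417), and Ube2c, the ubiquitin-conjugating enzyme of the ligase that ends mitosis (9.17 ± 1.14 CPM against 14.7 ± 0.447 CPM, -0.68, SE 0.124, adjusted p = 0.0467). The median of that list was -0.48, and 45 of 50 were below 0. No gene of these lists was called higher. Without Jmjd8-KO replicate 2, 4 of 42 and 6 of 50 passed by edgeR, all lower (4.82% of all genes). Without any other single mouse 0 genes of either list passed, in fits that called 0 to 17 genes in the whole table. With no filter on low counts and with the stricter filter 0 passed too (106 of 19120 and 146 of 13837 genes called lower).

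Regulators upstream of S phase were less uniform, and none passed by edgeR with all mice. Of 9 G1 cyclins and kinases 8 were below 0. At an unadjusted p under 0.05, 3 were lower and 1 higher (19.1% of all genes, in either direction). DESeq2 called 3 of them, 2 lower and 1 higher (536 lower and 503 higher of 13387 genes in the whole table). Ccnd1, cyclin D1, which with Cdk4 and Cdk6 inactivates the retinoblastoma protein, had the smallest p (54.0 ± 3.41 CPM against 69.9 ± 3.51 CPM, log2 fold change -0.37, SE 0.0801, edgeR adjusted p = 0.0681). Ccnd3, cyclin D3, named after its value was seen, was at 117.2 ± 5.75 CPM against 97.7 ± 3.40 CPM and was the 1 above 0 (0.26, adjusted p = 0.119 by edgeR). Both were called in these directions by DESeq2 and by edgeR without Jmjd8-KO replicate 2. Cdk6, also named after its value was seen, was called lower in the same 2 fits. It was at 21.0 ± 3.37 CPM against 31.5 ± 1.90 CPM (log2 fold change -0.59, SE 0.134, adjusted p = 0.0790 by edgeR). Of 7 inhibitors of the cyclin-dependent kinases 6 were above 0, with a median of 0.092 and 0 at an unadjusted p under 0.05 or called by DESeq2. Cdkn2c, the p18 inhibitor, had the smallest p there (126.0 ± 13.4 CPM against 108.8 ± 1.54 CPM, 0.21, SE 0.0898, adjusted p = 0.262 by edgeR). Without Jmjd8-KO replicate 2, Cdkn2b, the p15 inhibitor, was the 1 of 7 that passed (-0.55, edgeR adjusted p = 0.0140). In that fit 4.82% of all genes were called lower. Of 17 genes of the retinoblastoma, E2F and DREAM group, 10 were below 0, with a median of -0.039 and 0 called by DESeq2. At an unadjusted p under 0.05, 2 of 17 were lower, which is near the share of 10.1% of all genes. The smallest p was that of E2f8, a repressor that E2F factors induce (2.86 ± 1.04 CPM against 5.03 ± 0.403 CPM, -0.82, SE 0.295, adjusted p = 0.200 by edgeR).

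Sums over markers of macrophages and some other immune cells were lower along with the members, though not every marker was. The sum over 15 pan-macrophage markers was 3641, 3389 and 3921 CPM in the knockouts and 4949, 4960 and 5099 CPM in the controls, without overlap. Of the 15, 7 fell, against 1.33% of all genes tested. That share is also the background for the other counts of markers that fell. Lyz2, a lysozyme, was the largest single gene of the pan-macrophage sum. Set against that sum, the members came to 12.0, 12.9 and 11.5 per 100 CPM of macrophage markers in the knockouts and 11.7, 11.0 and 11.8 in the controls, so the ratio overlapped between the groups, a value worked out after both sums were seen. Not all pan-macrophage markers were lower, so the ratio depends on the markers chosen, and no other ratio was worked out. Csf1r was at 401.3, 378.8 and 413.2 CPM in the knockouts and 384.3, 405.5 and 423.9 CPM in the controls, and Mrc1 and Aif1 overlapped too. Of 12 markers of lipid-associated macrophages 5 fell, while their sum, mostly Lpl and Ctsd, was 17740 to 18200 against 18280 to 19060 CPM. Lpl, Ctsd and Cd63 of that list overlapped between the groups. The 12 T and NK cell markers summed to 40.8 to 47.8 CPM in the knockouts and 67.6 to 76.9 CPM in the controls, and 1 of 12 fell. Il7r, an interleukin receptor, made most of that gap, and the other 11 summed to 19.5 to 21.5 against 21.9 to 23.98 CPM. Mast cell markers summed to 41.6 to 46.1 against 55.2 to 66.5 CPM, with 1 of 6 lower. The B and plasma cell sum of 190.9 to 220.5 against 235.3 to 250.4 CPM rested on Jchain, a joining chain of antibodies, without which it was 163.3 to 201.4 against 176.2 to 187.2 CPM and overlapped; 1 of 8 tested fell, and the list's median log2 fold change was 0.086. The neutrophil sum of 6.39 to 6.59 against 12.8 to 15.9 CPM rested on S100a8, without which it was 1.51 to 1.69 against 0.346 to 0.857 CPM, the other way round; 1 of 2 tested fell and Ly6g was at 0 in all mice. The part of these cells in the members' levels was not tested.

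Of the other marker lists 5 overlapped between the genotypes in sum and 5 did not. The ranges overlapped for monocytes (76.5 to 107.7 against 96.4 to 110.1 CPM), endothelial cells (903.5 to 1041 against 899.0 to 973.8 CPM), pericytes and smooth muscle (880.7 to 943.4 against 896.0 to 986.8 CPM), progenitors and fibroblasts (7423 to 9233 against 7065 to 7611 CPM) and erythroid cells (328.6 to 409.4 against 326.0 to 376.8 CPM), and edgeR called no gene of these lists. Opposite to the members, the adipocyte sum was 26070, 29440 and 25860 CPM in the knockouts and 22450, 24050 and 24190 CPM in the controls, with a median log2 fold change of 0.37 and 2 of 10 called higher. Not every adipocyte marker was higher. Lep was at 4826, 4953 and 4898 CPM in the knockouts and 5290, 5837 and 5753 CPM in the controls. Fabp4, the most abundant of that list, overlapped between the groups. The rest of the list had every knockout above every control (14% of all genes tested). The mesothelial sum was likewise higher, at 309.5 to 336.6 against 153.8 to 212.0 CPM, with 3 of 8 called higher. Of all genes tested, 0.789% were called higher and 1.33% lower. The nervous system sum was 65.2 to 82.9 against 86.1 to 1382 CPM. Testis, which is rich in dividing germ cells and lies near this depot, had 5 of 10 markers at 0 in all mice (Prm2, Tnp1, Tnp2, Acrv1 and Spata16). Sycp3 made up nearly all of the testis sum of 39.7 to 54.4 CPM in the knockouts and 60.5 to 71.9 CPM in the controls. Markers of epididymis epithelium summed to at most 0.105 CPM in the knockouts and 0.811 CPM in the controls, with the 1 tested lower, and Lcn5, Lcn9, Cst8, Adam7, Adam28, Rnase9 and Cst12 were at 0 in all mice. The part of these cells in the members' levels was not tested either.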

How the data were processed

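RNA-seq libraries of 6 mice, 3 a group, were used. Per the submitters' processing notes, STAR aligned the reads to mm10 and featureCounts counted them; versions, annotation and strand setting were not found in the sources. The authors deposited raw counts and RPKM values for 24539 genes. RPKM served only to compare genes. Total counts were 17598696 to 20598473, so counting error matters mostly for members near 1 CPM.

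Counts were filtered with filterByExpr (minimum count 10), scaled by TMM and tested by edgeR 4.0.16 (quasi-likelihood, R 4.3.3) with genotype as the only term and Benjamini-Hochberg adjustment over 14322 genes at 0.05. SE was taken as the absolute log2 fold change divided by the root of F. Log2 CPM used a prior count of 2. The test was checked on simulated data. These held no library that stood apart, so the check does not cover the effect of such libraries. Alternatives were DESeq2 1.42.0, other scalings and filters, leaving out mice, a replicate block and a GC correction in 20 bins. Exon overlaps, transcript length and GC content are from GENCODE M21 (GRCm38), with GC content found for 97.9% of tested genes.

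The members and lists were chosen with earlier results of these data known. All 42 members could be named. From each other cell cycle list the genes past the threshold were named, or else the gene with the smallest p. Ccnd3, Cdk6 and Cdkn2b were named beside these after their values were seen. Of the marker lists, 2 genes were not matched. That the mice are separate animals is taken from the series' design text; whether they were littermates is not stated.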

Additional observations from a re-analysis of the deposited data

How the results depend on the processing

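The medians of both classes kept their sign in every alternative run. Set against the pooled SD within groups of a mouse's mean log2 CPM over the class, the S phase median moved by more than 1 SD with library size alone (-0.46). The median of all genes tested was itself -0.082 in that fit. Across leaving out each mouse the medians ran from -0.40 to -0.34 for S phase and from -0.55 to -0.40 for mitotic members. Counts were far less stable. Genes called numbered 1039 with DESeq2, 156 with no filter on low counts, 2833 without both Jmjd8-KO replicate 2 and WT replicate 1, and 0 to 1351 when each mouse was left out. Members called numbered 5 with library size alone (288 of 14322 genes called lower) and 10 with DESeq2 (536 of 13387). Without both libraries they numbered 23 (1389 of 14287). With no filter (106 of 19120) and with the stricter filter (146 of 13837) they numbered 1, Mcm5 in both. When each mouse was left out they numbered 0 to 14. With the replicate number as a block, 5 genes and 0 members passed by edgeR. In that fit 22 members were at an unadjusted p under 0.05 (15.7% of all genes, in either direction). Deviations of same-numbered mice from their group means correlated at -0.0179, -0.0292 and 0.00817, so no pairing by replicate number was seen. A shared litter or preparation was not tested. The block also leaves fewer degrees of freedom.

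Signs turned only in members that were not called. With library size alone, where the median of all genes was -0.082, these were Cdc45 (-0.059) and Gins2 (-0.018). Without both libraries they were Cdc45 (-0.021), Gins2 (-0.17), E2f1 (-0.083), Ccne2 (0.089) and Mybl2 (0.13). When each mouse was left out the log2 fold change ran from -0.14 to 0.019 for Mcm7, from -0.028 to 0.083 for Cdc45, from -0.10 to 0.23 for Gins2, from -0.045 to 0.26 for E2f1, from -0.29 to 0.026 for Ccne2, from -0.30 to 0.047 for Mybl2. The causes were not tested. Depth limits the members near 1 CPM, above all Ccnb1 and Mybl2.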
